A study of Mus musculus with 6 samples.

Results

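The genes described here encode enzymes and membrane proteins of peroxisomal beta-oxidation and of microsomal omega-oxidation of fatty acids: Cyp4a14, Cyp4a10, Aldh3a2, Abcd2, Abcd3, Ehhadh, Hsd17b4, Acaa1b and Pex11a. The probe sets described were all those whose platform annotation gave exactly 1 of these 9 symbols, which yielded 14 probe sets of 8 genes, among 45037 probe sets other than controls and 18193 annotated genes. Cyp4a10 had no probe set of its own and was measured only through a probe set that the annotation also assigns to Cyp4a31. Liver RNA was hybridised to 6 one-colour Affymetrix arrays, 3 from mice on a ketogenic diet (a fat-rich diet very low in carbohydrate) and 3 from mice on chow. All mice were C57BL/6, were 8 weeks old at the start, stayed on their diet for 6 weeks and had free access to food until a morning harvest. The design text puts the RNA at 2 to 3 animals a group and does not say whether an array held 1 mouse or a pool, so the p-values below measure only the spread between these arrays, which may be technical. The labels do not give the sex of the mice.

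Omega-oxidation starts in the endoplasmic reticulum, where cytochromes P450 of the Cyp4 families hydroxylate the methyl end of a fatty acid. Alcohol and aldehyde dehydrogenases then oxidise that end to a second carboxyl group, and the resulting dicarboxylic acids are shortened in peroxisomes. Peroxisomes also shorten very-long-chain and branched fatty acids, which enter through transporters of the ABCD family. In rodent liver many of these genes are textbook targets of the fatty acid receptor PPAR-alpha.

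On the ketogenic diet Aldh3a2 and Abcd2 rose, Abcd2 in 2 of its 3 probe sets above the filter on dim probe sets. No other member passed the threshold on all 6 arrays, and none fell. Chow array 2 was at least 2-fold above both other chow arrays for Cyp4a14 and Ehhadh, and for Cyp4a14 the call depended on that array. Of the 14 probe sets, 12 passed the filter (a mean log2 signal no lower than the overall median of 3.35), and the tests used limma with a Benjamini-Hochberg adjusted p under 0.05 over 22515 probe sets. By that rule 3 of 12 member probe sets were higher on the ketogenic diet, where 4.08% of all tested probe sets were, and 0 of 12 were lower, where 0.564% were. Of those 3, 2 were probe sets of Abcd2. Counted over genes by their brightest probe set, 1 of 8 members (Aldh3a2) was higher, where 4.74% of all genes were. None of the 8 was lower, where 0.615% of all genes were. When only those brightest probe sets were tested, adjusted over 11866 genes, 2 of 8 members were higher, where 6.52% of all genes were. They were Aldh3a2 and Abcd2 (limma adjusted p of 0.00789 and 0.0415), and 0 were lower. At an unadjusted p under 0.05, and with a trended robust prior, also 0 of 12 were lower. All 3 ketogenic arrays lay above all 3 chow arrays for 6 of 12 member probe sets, against 21.6% of all tested probe sets. Those 6 were the probe sets of Aldh3a2, Abcd2 and Pex11a, so several measure the same gene. The median log2 change of the 12 was 1.03, and that of all tested probe sets was 0.22. Without chow array 3 these medians were 0.58 and 0.11, and without chow array 2 they were 1.32 and 0.22.

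**Figure D1:**
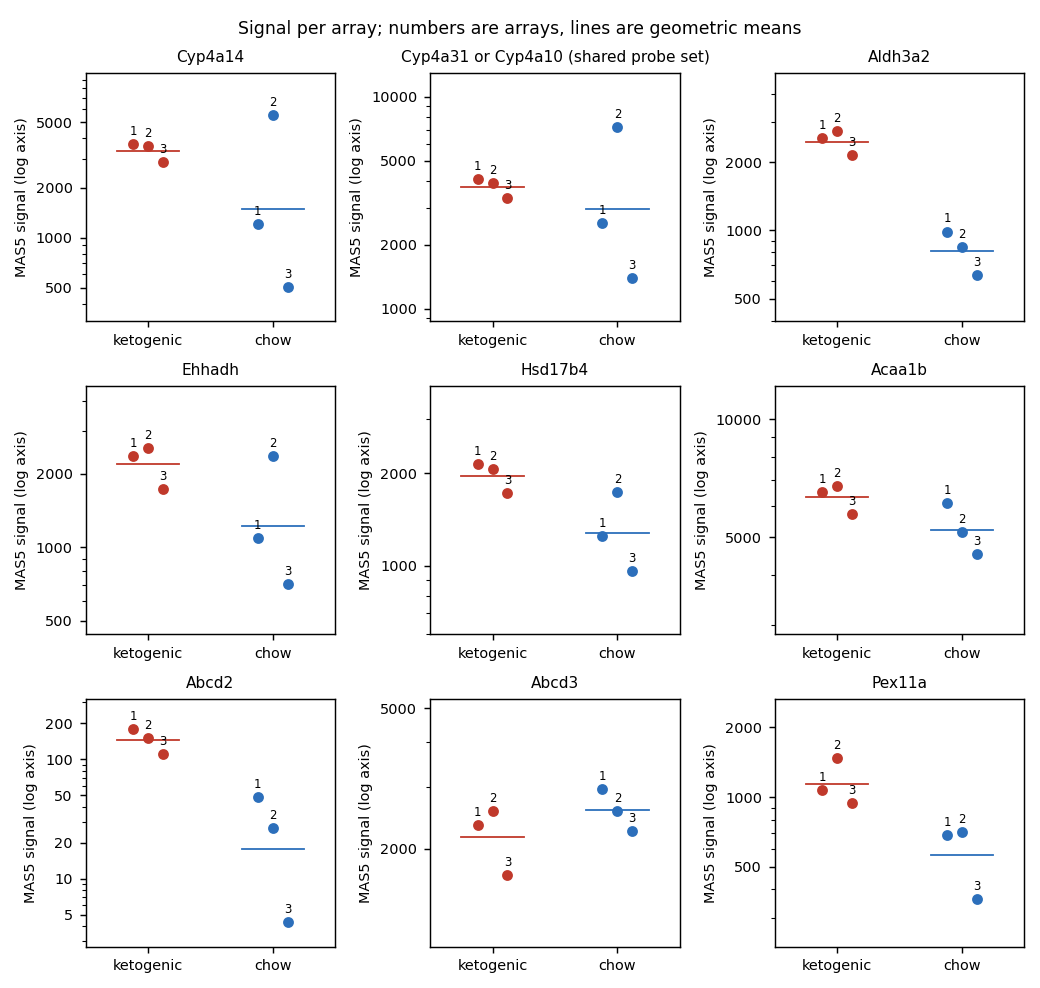
MAS5 signal (log axis) of the brightest probe set of each member and of the probe set shared by Cyp4a31 and Cyp4a10, for ketogenic arrays (left) and chow arrays (right); numbers are arrays and lines are geometric means. For Aldh3a2, Abcd2 and Pex11a the diets do not overlap, whereas chow array 2 lies above all ketogenic arrays for Cyp4a14.

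The signals were used at the level at which they were deposited, which differed between arrays. The 2% trimmed mean was 45.8 to 61.0 on ketogenic arrays and 39.9 to 53.5 on chow arrays, and the spiked hybridisation controls averaged 478 to 511 on ketogenic arrays and 633 to 650 on chow arrays. The ratio of 3' to 5' actin signal, a measure of RNA integrity, was 1.49 to 1.63 on ketogenic arrays and 2.00 to 2.20 on chow arrays, while that of Gapdh overlapped, at 0.775 to 0.812 on ketogenic arrays and 0.761 to 0.972 on chow arrays. Pearson correlations of log2 signal were 0.928 to 0.954 within a diet and 0.879 to 0.920 between diets. Of the liver's defining markers, 14 of 16 hepatocyte genes were measured, with 0 higher and 1 (Cps1) lower on the ketogenic diet, and their summed signal was 63593 to 72278 on ketogenic arrays and 76900 to 81197 on chow arrays. As deposited 4.74% of all genes were higher, and over 4 other scalings 2.86% to 22.1% of all tested probe sets were. Macrophage markers were higher for 11 of 14, with a summed signal of 4949 to 6585 on ketogenic arrays and 1337 to 1642 on chow arrays. Stellate cell and fibroblast markers were higher for 7 of 12 (4 without chow array 2, and 2 to 9 over 4 other scalings), with sums of 3291 to 4837 on ketogenic arrays and 1165 to 1512 on chow arrays. Endothelial markers were higher for 1 of 12 (0 without chow array 2, and 1 to 8 over the scalings), but all 12 log2 changes were positive, 8 were higher at an unadjusted limma p under 0.05, and the sums did not overlap, at 1711 to 2097 on ketogenic arrays and 895 to 1396 on chow arrays. Cholangiocyte and lymphocyte markers were higher for 0 of 4 each, with 1 and 0 of them at an unadjusted limma p under 0.05. Adipocyte markers were higher for 1 of 5, and the defining marker Adipoq was near 0, at 0.5, 1.8 and 3 on ketogenic arrays and 0.7, 1.2 and 0.3 on chow arrays. The part of these differences in the results below was not tested, and in bulk liver fewer cells of a type and less RNA per cell cannot be told apart.

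Aldh3a2, the fatty aldehyde dehydrogenase of the endoplasmic reticulum that completes omega-oxidation, rose on the ketogenic diet. Its probe set 1415776_at read 2540, 2734.8 and 2146 on ketogenic arrays 1, 2 and 3, against 988.1, 840.3 and 637.5 on chow arrays 1, 2 and 3. The 2 diets did not overlap, and chow array 2 lay between the other chow arrays. The means were 2474 ± 300 on the ketogenic diet and 822 ± 176 on chow (SD, n = 3 each), a ratio of 3.01. The log2 change was 1.61 ± 0.27 (SE; 95% interval 0.996 to 2.21), with a limma adjusted p of 0.0151. The change ranged from 1.39 to 1.97 over 16 other settings and passed in 13 of them. It did not pass without ketogenic array 1 (adjusted p = 0.0564) or without ketogenic array 2 (adjusted p = 0.0551), nor when dim probe sets were kept in (adjusted p = 0.0892), with limma throughout. The 3 genes whose log2 signal followed that of Aldh3a2 most closely over the 6 arrays were Gtpbp2 (r = 0.999), Krt42 (r = 0.998) and Rpl41 (r = 0.998), and 681 of 11858 genes reached an r of 0.95, so with 6 arrays in 2 groups this likeness is a description only.

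Upstream sequence is shown for Aldh3a2, which rose, and for Ehhadh and Pex11a, which did not pass the threshold. Each line gives the 250 bases before the start in RefSeq, build GRCm38.p6, read 5′ to 3′ on the gene's strand, and capitals mark CCAAT or its reverse complement ATTGG.
Aldh3a2 chr11:61267187-61267436, minus strand: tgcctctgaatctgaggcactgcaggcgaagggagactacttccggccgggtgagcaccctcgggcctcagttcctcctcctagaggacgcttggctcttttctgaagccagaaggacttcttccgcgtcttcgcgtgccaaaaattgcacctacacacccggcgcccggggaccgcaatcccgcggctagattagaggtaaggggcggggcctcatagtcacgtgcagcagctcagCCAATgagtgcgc
Ehhadh chr16:21787835-21788084, minus strand: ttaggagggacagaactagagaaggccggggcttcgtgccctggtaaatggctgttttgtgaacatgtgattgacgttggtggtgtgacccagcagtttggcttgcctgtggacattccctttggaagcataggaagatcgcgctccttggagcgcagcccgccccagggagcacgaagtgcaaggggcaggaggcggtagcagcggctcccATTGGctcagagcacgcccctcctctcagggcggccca
Pex11a chr7:79743132-79743381, minus strand: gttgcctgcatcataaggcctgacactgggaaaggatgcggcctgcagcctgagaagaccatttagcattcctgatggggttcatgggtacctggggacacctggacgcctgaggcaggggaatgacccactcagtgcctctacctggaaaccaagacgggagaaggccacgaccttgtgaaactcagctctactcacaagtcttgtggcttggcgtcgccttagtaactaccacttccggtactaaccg
The capitals lie 13 bases before the start in Aldh3a2 and 38 bases before it in Ehhadh, and Pex11a has no match. Windows were used for 5 of the 9 members, 6 windows in all since Abcd3 has 2. On the gene's strand, 1 of the 2 windows of Abcd3 lies downstream of the other start, so it falls within the gene as counted from there. The search among members, but not the count over all windows, left out 1 chromosome. Cyp4a14, Cyp4a10 and Abcd2 had no entry among the promoter windows, and no window of Hsd17b4 was used. CCAAT, the letters bound by the factor NF-Y, was found on either strand in 3 of the 6 windows, against 33.8% of 32851 promoter windows of the same length. AGGTCA, the hexamer bound by many nuclear receptors, was found in 0 of the 6 and in 14.0% of all windows. The direct repeat that PPAR-alpha and its partner RXR bind, AGGTCA on each side of 1 further base, which overlaps that hexamer, was found in 0 of the 6 and in 0.0335% of all. The GC box GGGCGG was found in 2 of the 6 and in 32.7% of all, the E-box CACGTG in 1 (Aldh3a2, 30 bases before the start) and in 6.02%, and TATAAA in 0 and in 12.4%. These matches are of letters alone, and no match says only that the letters are not in the window.

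Cyp4a14, which hydroxylates the methyl end of medium- and long-chain fatty acids, was bright on every ketogenic array and uneven on chow. Its probe set 1423257_at read 3707.5, 3571.2 and 2888.1 on ketogenic arrays 1, 2 and 3, against 1207.6, 5489.9 and 502.1 on chow arrays 1, 2 and 3. Chow array 2 stood above all 3 ketogenic arrays, and the other chow arrays stood below all of them. The means were 3389 ± 439 on the ketogenic diet and 2400 ± 2699 on chow (SD, n = 3 each). The log2 change of 1.17 ± 0.72 (SE; 95% interval -0.47 to 2.82) did not pass, with a limma adjusted p of 0.406. Without chow array 2 the log2 change was 2.11 ± 0.41 and passed, with a limma adjusted p of 0.0276. Without chow array 3 it was 0.39 (limma adjusted p = 0.799), and without chow array 1 it was 1.02 (limma adjusted p = 0.507). Of 16 other settings planned, only that without chow array 2 passed.

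Cyp4a10, a close relative of Cyp4a14, could be read only through probe set 1424853_s_at, which cannot be told from Cyp4a31. It gave 4107.3, 3914.3 and 3330.9 on ketogenic arrays 1, 2 and 3, against 2530.5, 7178.3 and 1397 on chow arrays 1, 2 and 3. The order of the arrays was that of Cyp4a14, with chow array 2 highest and the other chow arrays lowest. The shared probe set had a log2 change of 0.36 ± 0.52 (limma adjusted p = 0.738), and without chow array 2 its 95% interval was 0.20 to 1.81 (limma adjusted p = 0.185). Without chow array 3 the log2 change was -0.18. The probe set of Cyp4a31 alone, 1440134_at, read 251.3, 334.5 and 157.7 on ketogenic arrays, against 70.9, 227.3 and 57.8 on chow arrays. Its log2 change was 1.28 (limma adjusted p = 0.216), and 1.89 without chow array 2 (limma adjusted p = 0.0332).

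Abcd2, a transporter that carries very-long-chain and polyunsaturated acyl-CoA into the peroxisome, had the largest log2 changes among the members, at low signal on chow. Its brightest probe set, 1419748_at, read 178.3, 151 and 110.9 on ketogenic arrays 1, 2 and 3, against 48, 26.8 and 4.3 on chow arrays 1, 2 and 3. Probe set 1438431_at read 133.8, 127.5 and 108.1 on ketogenic arrays, against 21.2, 19.5 and 4.3 on chow arrays. Every ketogenic value lay above every chow value in both. The third, 1456812_at, read 102.2, 106.3 and 56 on ketogenic arrays, against 26.8, 12 and 5.8 on chow arrays, again without overlap. The values on chow array 3 were below 10.7, a limit under which 95% of 27 bacterial controls lay. Without that array the log2 changes were 2.01, 2.59 and 2.24 in 1419748_at, 1438431_at and 1456812_at, and all 3 passed. The log2 change was 3.34 ± 0.56 for 1438431_at (limma adjusted p = 0.0154) and 2.78 ± 0.53 for 1456812_at (limma adjusted p = 0.0241), and both passed. For 1419748_at it was 3.03 ± 0.76 (SE; 95% interval 1.30 to 4.75), with a limma adjusted p of 0.0609. That probe set passed in 6 of 16 other settings, 1438431_at in 12 of 14 and 1456812_at in 10 of 14. The calls for 1456812_at were lost without any 1 of the ketogenic arrays (limma adjusted p of 0.0532, 0.0734 and 0.0612), and that for 1438431_at without ketogenic array 3 (limma adjusted p = 0.064). The fourth, 1439835_x_at, was under the filter, at 13.2, 11.6 and 8.8 on ketogenic arrays and 2.3, 0.7 and 1.7 on chow arrays.

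Abcd3, a major membrane protein of liver peroxisomes, which carries branched and dicarboxylic acyl-CoA, gave no call. Its probe set 1416679_at read 2335.9, 2561.1 and 1687.1 on ketogenic arrays 1, 2 and 3, against 2951.5, 2552.6 and 2248.3 on chow arrays 1, 2 and 3. The diets overlapped. The log2 change was -0.25 ± 0.27 (SE; 95% interval -0.86 to 0.36; limma adjusted p = 0.642), and it turned to 0.11 when arrays were scaled to their hybridisation controls. A second probe set, 1443046_at, was under the filter, at 1.4 to 1.8 on ketogenic arrays and 1.6 to 6.4 on chow arrays.

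Ehhadh, the L-bifunctional enzyme that takes dicarboxylic and straight-chain substrates through the hydration and dehydrogenation steps, had a wide spread on chow. Its probe set 1448382_at read 2375.4, 2546.6 and 1736.4 on ketogenic arrays 1, 2 and 3, against 1096.3, 2363 and 707 on chow arrays 1, 2 and 3. Chow array 2 lay within the ketogenic range, and the other chow arrays lay below it. The means were 2219 ± 427 on the ketogenic diet and 1389 ± 866 on chow (SD, n = 3 each). The log2 change was 0.84 ± 0.43 (SE; 95% interval -0.13 to 1.81; limma adjusted p = 0.318), and 1.31 without chow array 2 (limma adjusted p = 0.0841). Without chow array 3 it was 0.44 (limma adjusted p = 0.635). With chow array 2 left out and arrays also rescaled, the limma adjusted p lay between 0.0202 and 0.0488.

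Hsd17b4, the D-bifunctional enzyme of the same steps, which also handles branched chains and bile acid precursors, read 2140.5, 2064.7 and 1724.9 in 1417369_at on ketogenic arrays 1, 2 and 3, against 1248.7, 1734.5 and 959.6 on chow arrays 1, 2 and 3. The diets overlapped only through chow array 2, which lay just above ketogenic array 3. Its log2 change was 0.62 ± 0.29 (limma adjusted p = 0.272), and its call passed only with hybridisation control scaling (0.99; limma adjusted p = 0.0366). The second probe set, 1455777_x_at, which can bind several transcripts, read 1301.3, 1587.6 and 989.1 on ketogenic arrays, against 1217.5, 1432 and 810.8 on chow arrays. Its log2 change was 0.18 (limma adjusted p = 0.785) and was below 0 after scaling to a trimmed mean (-0.035) or without chow array 3 (-0.057).

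Acaa1b, the peroxisomal thiolase that releases the shortened acyl-CoA in rodents, read 6532.4, 6744.2 and 5746.5 in 1424451_at on ketogenic arrays 1, 2 and 3, against 6104.6, 5153 and 4543.2 on chow arrays 1, 2 and 3. Ketogenic array 3 lay below chow array 1. Acaa1b had a log2 change of 0.27 ± 0.25 (SE; 95% interval -0.28 to 0.83; limma adjusted p = 0.568). The 2 probe sets that cannot tell Acaa1b from Acaa1a had log2 changes of 0.44 (limma adjusted p = 0.42) and 0.25 (limma adjusted p = 0.617).

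Pex11a, a membrane peroxin that elongates and divides peroxisomes, was higher on every ketogenic array in both of its probe sets and missed the threshold in both. Probe set 1449442_at read 1069.8, 1472.8 and 943.1 on ketogenic arrays 1, 2 and 3, against 684.4, 710.7 and 362.4 on chow arrays 1, 2 and 3. Probe set 1419365_at read 453.9, 617.4 and 360 on ketogenic arrays, against 204.6, 342.7 and 166.5 on chow arrays. In each, the lowest ketogenic value stood above the highest chow value. Log2 changes were 1.03 ± 0.34 (SE; 95% interval 0.26 to 1.79; limma adjusted p = 0.133) in 1449442_at and 1.04 ± 0.34 (limma adjusted p = 0.136) in 1419365_at. Both passed with hybridisation control scaling, with a 75th percentile filter and with a trended robust prior. In those settings 22.1%, 10.6% and 7.01% of all tested probe sets were higher.

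**Figure D2:**
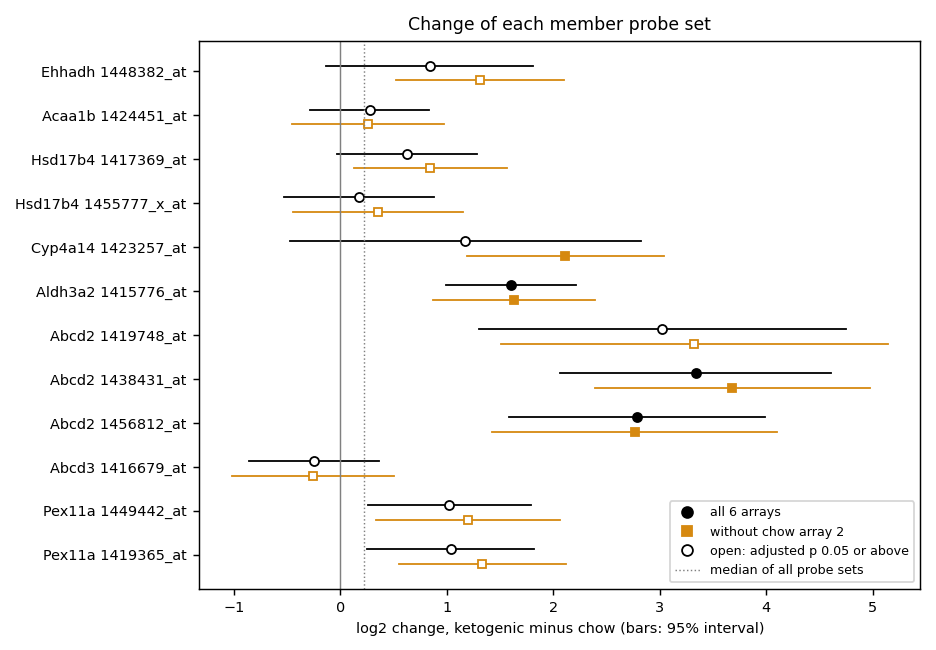
Log2 change, ketogenic minus chow, of each of the 12 member probe sets above the filter, with its 95% interval, on all 6 arrays (circles) and without chow array 2 (squares); filled symbols have an adjusted p under 0.05 and the dotted line is the median of all tested probe sets, 0.22. Cyp4a14 is at 1.17 on all arrays and at 2.11 without chow array 2, and Aldh3a2 is at 1.61 and 1.63.

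Chow array 2 stood apart for some of these genes more than for most of the array. It was singled out after the values had been seen, so the ranks and counts below describe it and test nothing. Relative to the mean of chow arrays 1 and 3, Cyp4a14 was 2.82 higher on the log2 scale on chow array 2, which ranked 20 of 22515 probe sets. The probe set of Cyp4a31 or Cyp4a10 was 1.93 higher, ranking 102, and Ehhadh was 1.42 higher, ranking 277. Chow array 2 was at least 2-fold above both other chow arrays for 2 of the 12 member probe sets, those of Cyp4a14 and Ehhadh, and for 1.06% of all tested probe sets. The spread over the chow arrays exceeded 2-fold for 6 of 12 member probe sets, against 25.2% of all tested, and the spread over the ketogenic arrays for 0 of 12, against 19.1%. Of those 6, 3 were probe sets of Abcd2, whose values on chow array 3 lay under the control limit of 10.7. Most members were bright, with 10 of the 12 past the 75th percentile filter, and these shares were not matched for signal. Chow array 3 was at least 2-fold below both other chow arrays for 4 of the 12 (Cyp4a14 and the 3 probe sets of Abcd2), against 6.38% of all tested. Without chow array 2, 4 of 12 member probe sets were higher, those of Aldh3a2 and Cyp4a14 and 2 of Abcd2, and 2.9% of all tested probe sets were. What set chow array 2 apart was not tested.

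**Figure D3:**
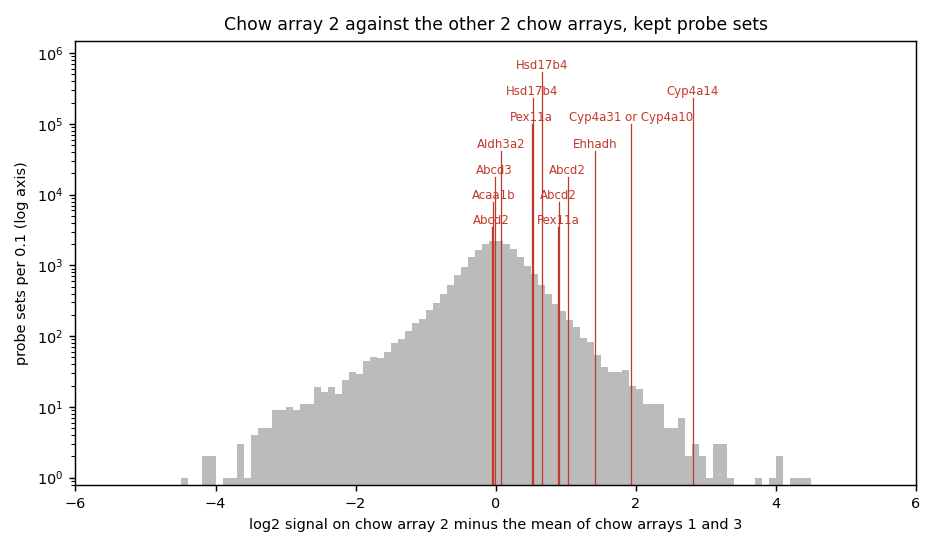
Number of tested probe sets (grey, log axis) by the log2 signal on chow array 2 minus the mean of chow arrays 1 and 3; red lines mark the member probe sets and the probe set of Cyp4a31 or Cyp4a10. Cyp4a14 (2.82) lies at the far right of the distribution and Aldh3a2, Abcd3 and Acaa1b lie near 0.

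Genes outside the members, in lists drawn up around peroxisomes, fatty acid oxidation and PPAR-alpha, were searched for the same pattern on chow array 2. Of 134 measured genes in 10 related lists, 8 were at least 2-fold above both other chow arrays on chow array 2, where 0.927% of all genes were. They were named after their values were seen. Lpin1, a phosphatidate phosphatase and PPAR-alpha coactivator, read 149.1, 117.6 and 117.8 on ketogenic arrays, against 120.8, 562.7 and 115.3 on chow arrays. The thioesterase Acot1 read 297, 263.1 and 229.9 on ketogenic arrays, against 105.2, 458.8 and 65.9 on chow arrays, and so had chow array 2 above every ketogenic array. The thioesterase Acot3 read 165.6, 186.8 and 68.8 on ketogenic arrays, against 69.4, 184.4 and 9.5 on chow arrays. The others were Acot2, the carnitine acetyltransferase Crat, Cidec, Cyp4a31 and Abcd4. The PPAR-alpha target Fgf21, by contrast, read 382.8, 486 and 575 on ketogenic arrays, against 37.2, 25.3 and 11.2 on chow arrays, with chow array 2 between the other chow arrays.

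Of the 134 measured genes in the related lists, 8 were higher and 3 lower on the ketogenic diet, counted over genes by their brightest probe set, where 4.74% of all genes were higher and 0.615% lower. All but 1 of the 8 were in the list of PPAR-alpha, its partners and other targets. Of all tested probe sets, 2.86% to 22.1% were higher over the 4 other scalings, with 22.1% under hybridisation control scaling. With a trended prior 7.01% were higher, and leaving out chow array 2 gave 2.9%. No share over all genes is given for counts at an unadjusted p or of positive changes. Of 13 other peroxisomal beta-oxidation enzymes, 0 were called in either direction by limma (4 higher and 1 lower at an unadjusted p under 0.05), with a median log2 change of 0.30. The 4 other scalings called 0 to 4 of them higher and 0 to 1 lower, a trended prior called 3 higher and 1 lower, and without chow array 2 the call for Crat passed (1.69; limma adjusted p = 0.0444). The brightest, the sterol carrier thiolase Scp2, had a log2 change of 0.04 (limma adjusted p = 0.94). Of 9 thioesterases and nudix hydrolases 0 were called (2 higher and 1 lower at an unadjusted p under 0.05; 0 to 2 higher and 0 to 1 lower over the scalings; 0 higher and 1 lower with a trended prior), and without chow array 2 the call for Acot4 passed (2.26; limma adjusted p = 0.0439). The brightest, the CoA hydrolase Nudt7, had a log2 change of -1.07 (limma adjusted p = 0.111). Of 12 genes in a list of alpha-oxidation enzymes, oxidases and some other enzymes, 1 was lower (1 to 3 over the scalings). It was Agxt, a glyoxylate aminotransferase and not an oxidase, with a log2 change of -1.55 (limma adjusted p = 0.0376, and 0.0604 without chow array 2). Of 3 ether lipid genes, 9 other transporters and 15 other peroxins and division factors, 0 were called (2, 0 and 0 higher and 0, 2 and 0 lower at an unadjusted p under 0.05). With hybridisation control scaling 2, 1 and 1 were higher, and with a trended prior 0 were higher and 0, 1 and 0 lower. The brightest gene of each, Gnpat, Acbd5 and Pex7, had log2 changes of -0.23, -0.29 and 0.18.

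Of 12 other measured genes of the omega-hydroxylation list, 10 cytochromes P450 and the electron carriers Cyb5a and Cyb5r3, 1 was higher and 1 lower (0 to 1 higher and 1 to 2 lower over the scalings). With a trended prior 0 were higher and 3 lower. The median log2 change was -0.22 over the 12, which became 0.14 with hybridisation control scaling, and -0.046 over the 10 cytochromes P450. Cyp4f16 read 26.9, 22.4 and 15.4 on ketogenic arrays, against 4.8, 4.5 and 11 on chow arrays, where 1 of 3 exceeded the control limit of 10.7. It passed the filter through its ketogenic signal. With chow values raised to that limit it was at least 1.95-fold higher, a bound that was not itself tested. On the deposited signals its log2 change was 1.76 (limma adjusted p = 0.0422). Among other settings, that call was lost with quantile scaling (0.0856), a common median (0.0713), a trimmed mean (0.102) and a floor of 16 (0.323), and without chow array 2 (0.0979), all limma adjusted p. It was also lost with a trended prior, with no filter, without chow array 1 and without any 1 of the ketogenic arrays. Cyp4f14, which hydroxylates leukotriene B4 and vitamin chains, read 224, 224.1 and 178.8 on ketogenic arrays, against 668.2, 453.4 and 563.6 on chow arrays. It fell by 1.42 (limma adjusted p = 0.0218), and the call was lost with no filter and without any 1 of the ketogenic arrays. Of 15 alcohol and aldehyde dehydrogenases other than Aldh3a2, 1 was lower (1 to 5 over the scalings, 3 with a trended prior and 0 without chow array 2), the formyltetrahydrofolate dehydrogenase Aldh1l1, with a log2 change of -1.46 (limma adjusted p = 0.0237; 0.0578 without chow array 2). Of 20 mitochondrial fatty acid oxidation genes 0 were called (5 higher and 0 lower at an unadjusted p under 0.05; 10 higher with hybridisation control scaling and 2 with a trended prior), and all 20 had positive log2 changes as deposited, 15 of them after scaling to a trimmed mean. Of all tested probe sets, 22.1% were higher with hybridisation control scaling and 7.01% with a trended prior, and their median log2 change as deposited was 0.22. The brightest of the 20 genes, Hadh, had a log2 change of 0.33. PPAR-alpha with its partners and other targets had 7 of 26 higher and 0 lower (11 and 0 at an unadjusted p under 0.05; 6 to 12 higher over the scalings), among them Fgf21 (4.44; limma adjusted p = 0.00188) and Cidec (3.77; limma adjusted p = 0.00801). Fabp3, a fatty acid binding protein, read 84.9, 138.8 and 48 on ketogenic arrays, against 12.8, 9.8 and 1.5 on chow arrays, where 1 of 3 exceeded the control limit of 10.7. Fabp3 too passed the filter through its ketogenic signal. With chow values raised to that limit it was at least 7.30-fold higher, a bound that was not itself tested. On the deposited signals its log2 change was 3.85 (limma adjusted p = 0.027). That call was lost with quantile scaling, with no filter and without ketogenic array 2 or 3 (limma adjusted p of 0.0583, 0.173, 0.081 and 0.0705). Without chow array 2, 8 of these 26 were higher.

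**Figure D4:**
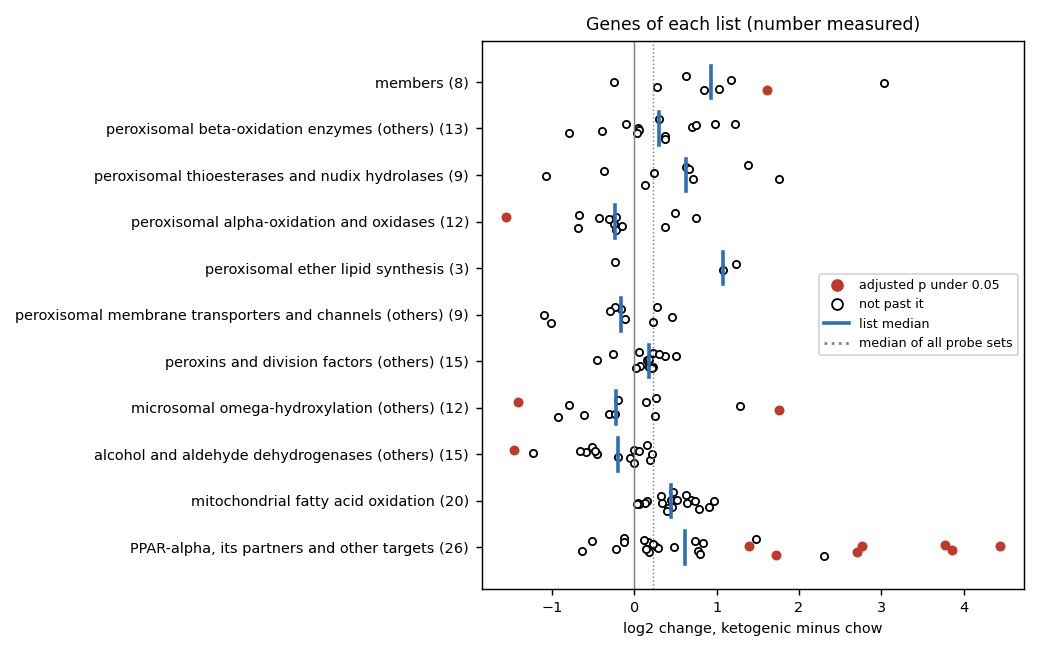
Log2 change, ketogenic minus chow, of each gene in the members and 10 related lists (each point 1 gene by its brightest probe set, filled where the adjusted p was under 0.05); blue ticks are list medians and the dotted line is the median of all tested probe sets, 0.22. The fitted values of Cyp4f16 and Fabp3 rest on chow signals mostly under the control limit. The median of the 8 measured members is 0.93, against 0.30 for the other peroxisomal beta-oxidation enzymes. It is 1.07 for the 3 ether lipid genes, 0.63 for thioesterases and nudix hydrolases, and 0.61 for PPAR-alpha, its partners and other targets. It is 0.45 for mitochondrial fatty acid oxidation and below 0.30 for the rest. Without chow array 3 the median is 0.43 for the members and 0.10 for the other peroxisomal beta-oxidation enzymes.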

How the data were processed

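The authors deposited a linear signal intensity for each probe set, from GCOS and MAS5 according to the submitters' processing notes; the sources used here give no versions, scaling target or settings. Signals were used as deposited, raised to a floor of 1.1 (10th percentile) and transformed to log2. After removal of 64 control probe sets from 45101, probe sets with a mean log2 signal of at least 3.35 (signal 10.2) were kept, 22515 in all, and the log2 values of the deposited signals were tested with limma 3.58.1 in R 4.3.3 (lmFit and eBayes, two-sided, Benjamini-Hochberg, adjusted p under 0.05). A gene in a list is represented by its brightest probe set. Symbols came from the platform annotation: 34958 probe sets had 1 symbol, 932 had several and name no gene here, and 9211 were not listed. On simulated data the fit recovered 0.65% of 2-fold and 44.8% of 4-fold changes, with 6.30% of calls false. The members, gene lists and tests were chosen with earlier results of these data known. Named in the text are all members; of each related list, up to 3 called genes by size of change, or the brightest gene where none was called; and the 3 genes most correlated with a called member's representative. Exceptions are marked. Precision is limited by the number of arrays. Alternatives were other scalings, floors, filters, priors and probe set choices, and each array left out. Array numbers follow the order of deposition and pair nothing.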

Additional observations from a re-analysis of the deposited data

How the results depend on the processing

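No paired analysis was possible because the array numbers were given in order of deposition. As deposited, 918 probe sets were higher and 127 lower on the ketogenic diet. Scalings moved the median log2 change of all probe sets by -0.23 (quantile), -0.11 (common median), -0.21 (trimmed mean) and 0.36 (hybridisation controls), and the share of calls that were higher from 87.8% to 64.6%, 77.4%, 66.2% and 97.5%. The lower count became 354, 312 and 403 under the first 3 scalings and 269 with a 75th percentile filter, and the higher count became 4985 with hybridisation controls and 536 once probe sets open to several transcripts were dropped. Without a filter the counts were 140 higher and 38 lower, and with a trended robust prior 1578 and 294. Leaving out 1 array gave 272 to 974 higher (272, 331 and 363 without ketogenic arrays 3, 2 and 1) and 38 to 118 lower (38 without ketogenic array 3, 63 and 82 without chow arrays 1 and 3). Of the member probe sets, 3 were higher as deposited, 7 with hybridisation controls, 5 with a trended robust prior, 0 without a filter and 1 to 4 with 1 array left out (1 without any ketogenic array, 4 without any chow array); 0 were lower under every setting. Settings chosen after seeing the data combined leaving out chow array 2 with each scaling: the higher count was 358 with quantile, 378 with a trimmed mean and 2477 with hybridisation controls (82 lower), and 5 member probe sets were higher with a common median and 9 with hybridisation controls. Cyp4a14 passed in each (limma adjusted p 0.0129 to 0.0441). Reversed in sign were Hsd17b4 1455777_x_at (-0.035 with a trimmed mean, -0.057 without chow replicate 3) and Abcd3 1416679_at (0.11 with hybridisation controls, 0.10 with these and without chow array 2). The causes were not tested beyond what fewer arrays or more tests imply.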
